A study of Mus musculus with 13 samples.

Results

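The genes described here encode 44 ATP-dependent chromatin remodelling enzymes and subunits of their complexes, measured by RNA-seq in mouse Th17 cells. They were chosen by gene symbol from a fixed set of names, with no measured value in the rule, and all 44 were found among the 56941 genes of the count table. Of these, 17 belong to SWI/SNF complexes, 6 to ISWI complexes, 13 to the CHD family and the NuRD complex, 5 to the INO80 and SRCAP complexes, and 3 are other Snf2-family ATPases. Th17 cells are CD4+ helper T cells that make IL-17A and IL-17F. In this study naive CD4+ T cells were taken from the spleen, activated and held for 72 hours under Th17-polarizing conditions. One genotype was labelled Chaf1bWT (WT) and the other Chaf1bfl/fl;Il17fCre+ (KO), with 3 libraries each, and the comparison asked what Chaf1b does in these cells. The protein made from Chaf1b belongs to the chaperone CAF-1, which places histones H3 and H4 on newly copied DNA. The Cre recombinase in the KO cells is driven by Il17f, so deletion can begin only in cells that have switched that gene on. The labels do not say whether the WT mice carried the Cre, give neither age nor sex, and call the 3 libraries biological replicates without tying each to an animal. The p-values below therefore measure the spread between these libraries.

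Remodellers use ATP to slide, evict or exchange nucleosomes, and so set which DNA is open to transcription factors and polymerases. SWI/SNF complexes mostly open chromatin at enhancers and promoters. ISWI complexes space nucleosomes evenly, NuRD joins a CHD remodeller to histone deacetylases, and the INO80, SRCAP and TIP60 group handles the histone variant H2A.Z. In T cells these families are known to take part in lineage choice and in the opening of cytokine genes.

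The 6 libraries held between 35708879 and 45232055 counts, and levels are given as CPM, counts scaled to a common library size. The libraries carried the T cell markers (5 of 5 counted), CD4 markers (2 of 2) and Th17 markers (6 of 6). Of the 4 NK markers, 3 were at 0 in every library, as were Clec9a and Siglech of the 5 dendritic cell markers. The dendritic list summed to 17.9 to 19.4 CPM in WT and 20.6 to 22.7 in KO, nearly all of it Zbtb46. None of the 6 B cell and 6 myeloid markers was at 0 in every library, and their sums were 16.3 to 22.1 and 5.26 to 5.83 CPM in WT and 14.1 to 16.0 and 6.40 to 8.89 CPM in KO. The 2 CD8 markers summed to 14.1 to 16.0 and 12.4 to 16.6 CPM, and the 5 stromal or endothelial markers to 29.6 to 34.3 and 27.3 to 29.2 CPM. Chaf1b itself was no lower in KO (11.4 to 13.2 CPM in WT and 13.5 to 16.3 in KO, adjusted p = 0.130 in edgeR). Without WT replicate 1 edgeR called Chaf1b higher (adjusted p = 0.0138), as limma-voom with quality weights also did (0.0169). These 2 fits called 19.7% and 19.5% of all tested genes, and the other fits did not call Chaf1b. The count covers all exons, so it does not check the genotype, and every direction below rests on the labels. The summed Th17 markers were at 186 to 284 CPM in WT and 96.4 to 98.2 in KO. The summed S phase list of 28 genes was at 1894 to 1947 CPM in WT and 2416 to 2449 in KO, and the gamma delta T cell list of 5 genes at 50.7 to 62.6 and 95.8 to 101 CPM, with 4 of its 5 genes called higher. The part of these shifts in the results below was not tested. In bulk RNA, fewer cells of a type and less RNA per cell cannot be told apart.

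The promoters of the members whose test result or direction is followed below are shown first, from RefSeq on the GRCm38.p6 build. For Chd6 and Gatad2a the 250 bases before the start are printed 5′ to 3′ on the gene's own strand, with each CCAAT box in capitals as CCAAT or, on the other strand, ATTGG. For Hells, 30 bases are shown with the E2F word in capitals.
Chd6, chr2:161109087-161109336, minus strand: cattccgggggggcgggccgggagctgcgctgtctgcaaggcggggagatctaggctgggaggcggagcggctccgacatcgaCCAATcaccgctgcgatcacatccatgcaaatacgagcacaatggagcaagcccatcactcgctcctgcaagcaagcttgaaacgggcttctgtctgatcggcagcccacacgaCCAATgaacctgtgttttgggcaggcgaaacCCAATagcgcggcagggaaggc
Gatad2a, chr8:69996385-69996634, minus strand, the outermost of its starts: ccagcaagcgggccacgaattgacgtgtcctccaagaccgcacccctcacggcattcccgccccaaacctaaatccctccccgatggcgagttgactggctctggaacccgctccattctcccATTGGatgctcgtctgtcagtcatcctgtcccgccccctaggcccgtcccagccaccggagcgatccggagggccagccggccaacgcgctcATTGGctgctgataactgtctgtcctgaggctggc
Hells, chr19:38930917-38930946, plus strand: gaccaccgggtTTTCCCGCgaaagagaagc
The Chd6 window held 3 CCAAT boxes and the printed Gatad2a window 2, so the printed windows of the lower and the higher gene in KO both carried this motif. The window of the second Gatad2a start held 0, and which start these cells use was not tested. A CCAAT box was present in 33.9% of 32841 RefSeq promoters of this length and in 13 of the 43 promoter entries of the members (30.2%), which covered 36 of the 44 genes. The Hells stretch, 73 to 44 bases before the start, held TTTCCCGC. That word or one of TTTCGCGC, TTTGCCGC and TTTGGCGC, searched on both strands, was found in 1.86% of all promoters, in 4 of the 43 member entries (9.3%) and in 7 of 25 entries of the S phase list (28%). The other 3 member entries with such a word were those of Smarcd1, Brd7 and one start of Arid1a. The GC box GGGCGG was found in 37 of the 43 member entries (86%) and in 18 of the 25 S phase entries (72%), against 32.7% of all promoters. The half-site AGGTCA, read by ROR nuclear receptors, was found in 2 of the 43 (4.65%), at Baz1b and the second start of Gatad2a, against 14% of all promoters. A match describes letters in the window and shows no binding.

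Remodeller transcripts were counted at nearly the same level in both genotypes. The CPM of all 44 genes summed to 6285 ± 102 in WT and 6271 ± 103 in KO (SD, n = 3), a difference of -0.22%. Of the 43 genes with enough counts to test, 2 passed an adjusted p of 0.05: Chd6 fell and Gatad2a rose in the libraries labelled KO (edgeR's quasi-likelihood test, Benjamini-Hochberg adjustment over 14681 genes). That is 4.65% of the members, beside 6.39% of all tested genes (3.92% higher and 2.47% lower). Among genes with a WT mean of at least 20 CPM, 2 of 41 members (4.88%) and 7.97% of all genes passed.

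The members' differences were also small in size. Their median log2 fold change, KO over WT, was -0.02, against -0.01 over all tested genes. The median size regardless of direction was 0.066 for the members, 0.135 for all tested genes and 0.083 for those of at least 20 CPM. The 95% interval of the fold change lay within 1.5-fold of no change for 43 of 43 members, compared with 63.4% of all tested genes and 96.9% of those of at least 20 CPM. It lay within 1.25-fold for 35 of 43 members (81.4%), compared with 40.5% of all genes and 75.8% of those of at least 20 CPM. An unadjusted p under 0.05 was reached by 10 members (23.3%, 3 higher and 7 lower), close to 21.1% of all genes (10.9% higher and 10.2% lower). The ranges of the genotypes were apart for 10 members (23.3%), compared with 26.8% of all genes (14.4% above and 12.4% below). Of these, KO was above WT for Actl6a, Mta2, Gatad2a, Ruvbl1 and Ruvbl2, and below it for Chd3, Mta1, Chd6, Ino80 and Ep400.

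**Figure D1:**
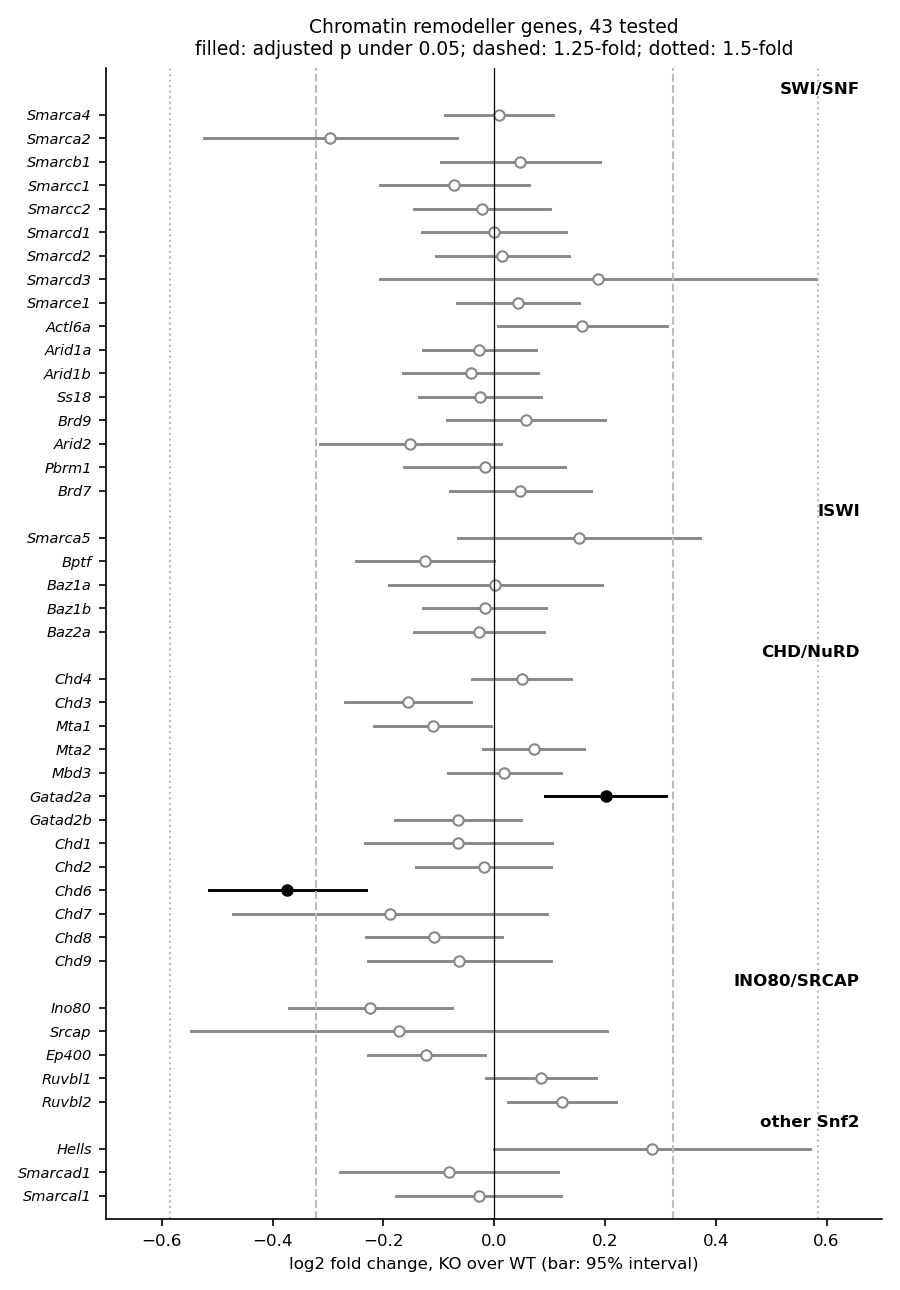
Log2 fold change, KO over WT, with its 95% interval for each of the 43 tested remodeller genes (n = 3 libraries a genotype), ordered by complex. The interval lies wholly to 1 side of 0 for the 10 members with an unadjusted p under 0.05 in edgeR (3 above and 7 below). Among these are Chd6 (below) and Gatad2a (above), which alone passed the adjusted threshold. Every interval stays within 1.5-fold.

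The motor genes and the other subunits were also read apart. Of the 17 tested ATPase genes, 13 had a fitted fold change below 0 and 4 above it, with a median log2 of -0.08. The libraries did not overlap for 4 ATPase genes (Chd3, Chd6, Ino80 and Ep400), all with KO below WT. That is 23.5% of the ATPase genes, near the 26.8% of all tested genes (12.4% with KO below). The 26 other subunits were split into 13 below and 13 above 0, with a median of 0.00, and the libraries did not overlap for 6 (23.1%), of which 5 had KO above WT (14.4% of all tested genes). Over all tested genes 51.3% were below 0. Each class had 1 gene past the threshold, and the difference between the classes was not tested.

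**Figure D2:**
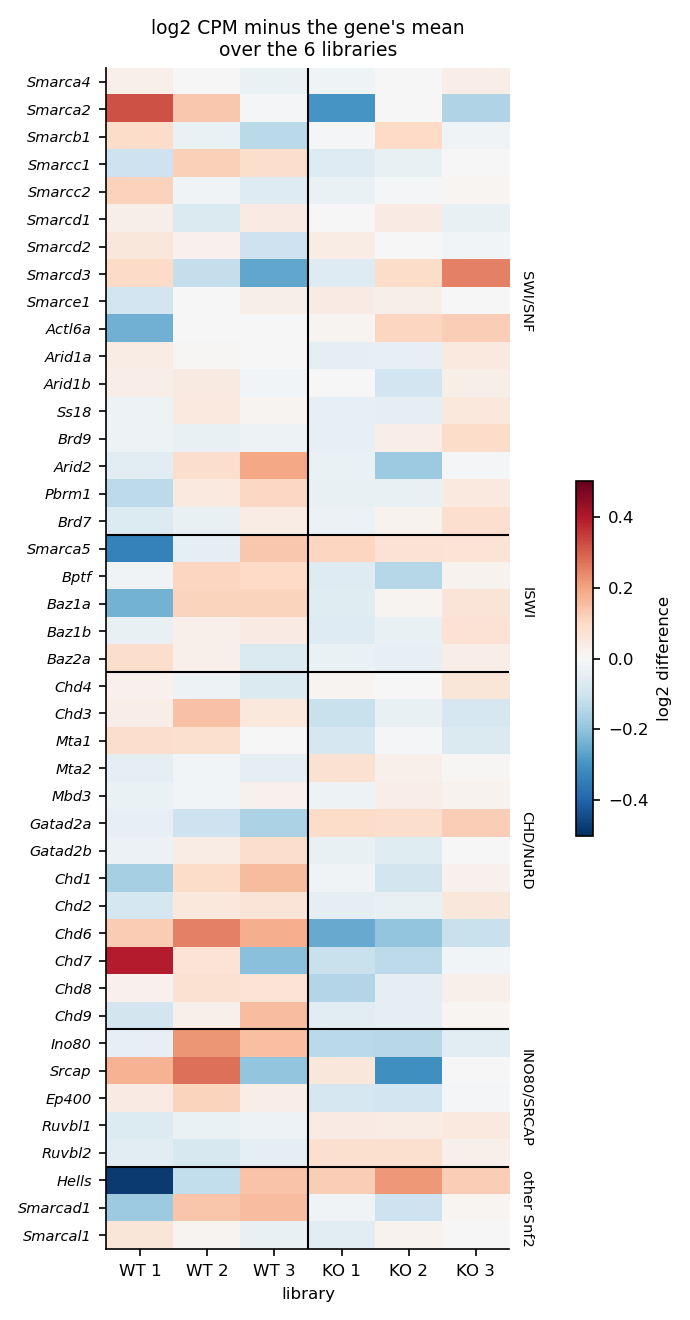
Log2 CPM of each tested remodeller gene in each library, minus that gene's mean over the 6 libraries, with rows ordered by complex and columns by genotype. The Chd6 row changes from red in WT to blue in KO and the Gatad2a row does the reverse, and the WT libraries are spread more widely than the KO libraries for Hells, Smarca5 and Chd7.

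No SWI/SNF gene passed the threshold in edgeR with the default filter and all 6 libraries. SWI/SNF (also called BAF) is assembled around 1 of 2 alternative ATPases, Smarca4 (BRG1) and Smarca2 (BRM). With all 6 libraries none of the 17 genes was called by edgeR with the default filter, by DESeq2 or by limma-voom without weights. In that edgeR fit 2 had an unadjusted p under 0.05 (Smarca2 and Actl6a). Smarca2 was called without the filter (adjusted p = 0.0259) and, with Arid2, by limma-voom with quality weights (0.0370 and 0.0427). Their median log2 fold change was -0.00 and their summed level was 1849 ± 16.3 CPM in WT and 1840.1 ± 32.2 in KO. The interval lay within 1.25-fold for 15 of the 17, the exceptions being Smarca2 and Smarcd3.

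Smarca4 (ENSMUSG00000032187.17) was counted at 230.2, 226 and 221 CPM in the WT libraries and 223, 227 and 231 CPM in KO. The libraries of the genotypes were interleaved, and the log2 fold change was 0.01 ± 0.04 (SE, 95% interval -0.09 to 0.11, adjusted p = 0.937 in edgeR). Smarca2 (ENSMUSG00000024921.18) was at 31.7, 27.9 and 25.2 CPM in WT and 20.7, 25.4 and 22.9 CPM in KO. Only KO replicate 2 reached into the WT range, just above WT replicate 3. The log2 fold change was -0.30 ± 0.10 (interval -0.52 to -0.07, adjusted p = 0.126). Smarca2 thus did not pass in edgeR with the default filter and all 6 libraries, unlike in the fits without the filter and with quality weights. Without WT replicate 3 it passed (-0.37, adjusted p = 0.0477), and without WT replicate 1 it was -0.20 (adjusted p = 0.105).

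The core subunits were not called with all 6 libraries. Smarcb1, which contacts the nucleosome face opposite the motor, differed by 0.05 on the log2 scale, and the scaffold subunits Smarcc1 and Smarcc2 by -0.07 and -0.02. Smarcd1 and Smarcd2, which link the core to transcription factors, differed by -0.00 and 0.01, and Smarce1, an HMG-box subunit, by 0.04. Adjusted p-values of these 6 genes ran from 0.560 to 1.00. Smarcd3, a paralogue best known from muscle and heart, was the member with the fewest counts among SWI/SNF, at 3.20 ± 0.404 CPM in WT and 3.64 ± 0.400 in KO. Its interval was the widest of the group, from -0.21 to 0.58. Actl6a, an actin-related subunit shared with INO80 and TIP60 complexes, was at 79.5, 93.6 and 93.7 CPM in WT and 94.7, 101 and 102 CPM in KO. Every KO library was above every WT library, but the 2 higher WT libraries lay just under KO replicate 1 and the log2 fold change of 0.16 ± 0.07 had an adjusted p of 0.216 in edgeR. It was 0.09 without WT replicate 1 (adjusted p = 0.241).

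The subunits that define the SWI/SNF subtypes were likewise uncalled with all 6 libraries, except Arid2 in limma-voom with quality weights. Arid1a and Arid1b, alternative DNA-binding subunits of canonical BAF, differed by -0.03 and -0.04 on the log2 scale. Ss18, found in canonical and non-canonical BAF, differed by -0.03, and Brd9, the bromodomain subunit of non-canonical BAF, by 0.06. Of the PBAF subunits, the bromodomain proteins Pbrm1 and Brd7 differed by -0.02 and 0.05. The third, Arid2, was at 66.7, 73.7 and 79.3 CPM in WT and 67.8, 61.2 and 69.0 CPM in KO. These ranges overlapped through WT replicate 1, and the log2 fold change was -0.15 ± 0.07 (adjusted p = 0.272). Without WT replicate 1 the Arid2 value passed (-0.21, adjusted p = 0.00716), as did that of Smarcc1 (-0.14, adjusted p = 0.0169). Arid2 was at -0.09 without WT replicate 3 (adjusted p = 0.531), and Smarcc1 at -0.03 without WT replicate 2 (adjusted p = 0.884).

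The ISWI group was carried by 1 of its 2 ATPases. Smarca1 (SNF2L, ENSMUSG00000031099.17), best known from the nervous system, had 0 counts in all 6 libraries. A count of 0 allows up to 3 counts, or 0.0663 to 0.0840 CPM depending on the library. These limits cover counting error only and treat each count as independent. Both mates appear to be counted, so the limits may be too low. Smarca5 (SNF2H, ENSMUSG00000031715.15) was at 143, 175 and 198 CPM in WT and 195, 190.2 and 189 CPM in KO. The KO libraries lay close together near the top of a wide WT range, with WT replicate 1 lowest. The log2 fold change was 0.15 ± 0.10 (interval -0.07 to 0.37, adjusted p = 0.418). It was 0.03 without WT replicate 1 (adjusted p = 0.667) and 0.27 without WT replicate 3 (adjusted p = 0.0504).

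With the default filter and all 6 libraries edgeR called none of the partners that place SNF2H in its different complexes. DESeq2 and limma-voom without weights called none either. Bptf was the only ISWI gene with an unadjusted p under 0.05 in that edgeR fit. Bptf, the large histone-reading subunit of NURF, was at 157, 171 and 170.2 CPM in WT and 152, 144 and 161 CPM in KO. The groups overlapped only through WT replicate 1 and KO replicate 3, and the log2 fold change was -0.13 ± 0.06 (adjusted p = 0.236). It passed without WT replicate 1 (-0.16, adjusted p = 0.00937) and in limma-voom with quality weights (adjusted p = 0.0229). Baz1a, of the ACF and CHRAC spacing complexes, differed by 0.00 on the log2 scale, Baz1b, of the WICH complex, by -0.02, and Baz2a, of the nucleolar complex NoRC, by -0.03. The summed ISWI level was 901 ± 50.6 CPM in WT and 900.0 ± 28.0 in KO.

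Both members that edgeR called with the default filter and all 6 libraries were in the CHD and NuRD group. There 2 of 13 genes passed (15.4%, beside 6.39% of all tested genes) and 4 had an unadjusted p under 0.05 (30.8%, beside 21.1%). With quality weights limma-voom called 4 of the 13 (Chd3, Mta1 and Chd6 lower, Gatad2a higher), beside 19.5% of all tested genes. The summed level of the 13 was 2694 ± 29.9 CPM in WT and 2689.7 ± 37.5 in KO, and the median log2 fold change was -0.06. Chd6 (ENSMUSG00000057133.15) encodes a CHD ATPase outside NuRD. It was counted at 54.5, 59.2 and 56.5 CPM in WT and 41.8, 43.5 and 46.1 CPM in KO, from 1469 to 2573 counts a library. The highest KO library was well under the lowest WT library. Chd6 fell by 22.8% (95% interval -30.0% to -14.8%), a log2 fold change of -0.37 ± 0.06 (adjusted p = 0.00631 in edgeR). It ranked 260 of 14681 genes by p. The direction held without each library in turn (-0.41 to -0.34 over all alternatives), and Chd6 no longer passed with KO replicate 1 left out (adjusted p = 0.0582) or with KO replicate 2 left out (0.0503). Chd6 overlaps Gm25561, a gene not listed as protein-coding, in the RefSeq annotation, and counting used no strand.

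Gatad2a (ENSMUSG00000036180.16) encodes p66-alpha, which bridges the MBD and CHD subunits of NuRD. It was at 137, 130.4 and 126 CPM in WT and 149.7, 149 and 153 CPM in KO, from between 5005 and 5724 counts in each library. All KO libraries lay within a narrow band above the WT range. Gatad2a was 15.0% higher (95% interval 6.62% to 24.0%), a log2 fold change of 0.20 ± 0.05 with an adjusted p of 0.0367 in edgeR. Gatad2a no longer passed with 1 library left out, be it WT replicate 2 (adjusted p = 0.149), WT replicate 3 (0.0697), KO replicate 1 (0.158), KO replicate 2 (0.146) or KO replicate 3 (0.166). It held without WT replicate 1 (0.23, adjusted p = 1.79e-04). Its paralogue Gatad2b, p66-beta, was at 108, 113 and 117 CPM in WT and 108, 106 and 110.2 CPM in KO, and did not pass (-0.07 ± 0.05, adjusted p = 0.521).

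**Figure D3:**
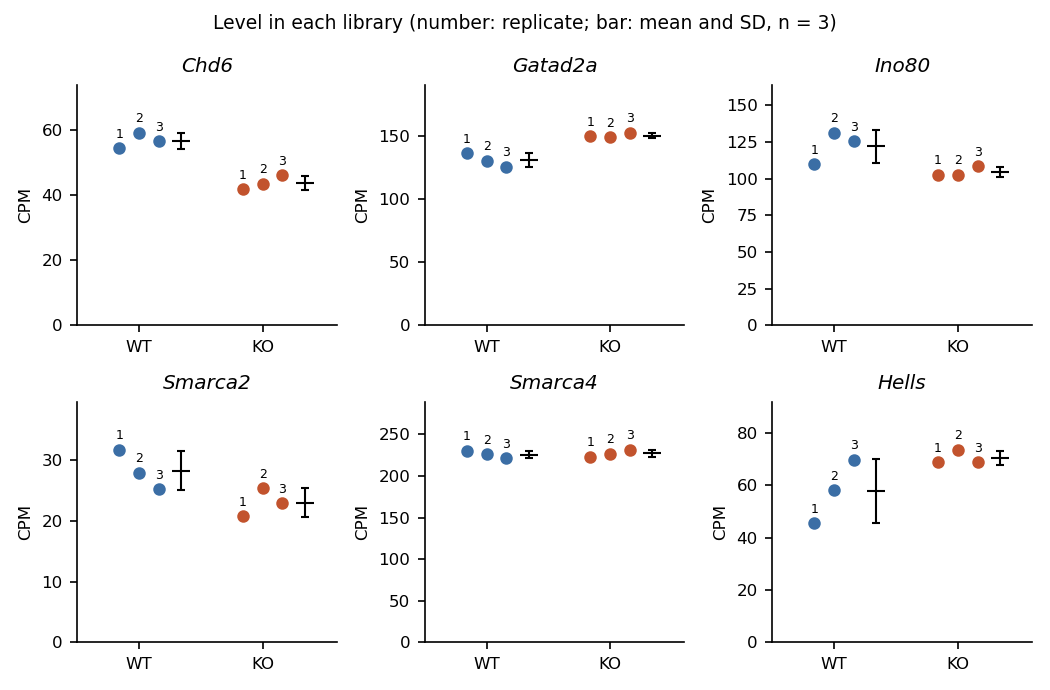
Level in CPM of Chd6, Gatad2a, Ino80, Smarca2, Smarca4 and Hells in each library, numbered by replicate, with the mean and SD of each genotype (n = 3). Chd6 (41.8 to 46.1 CPM in KO, 54.5 to 59.2 in WT) and Gatad2a (149 to 153 in KO, 126 to 137 in WT) do not overlap between genotypes.

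The NuRD motor Chd4 (Mi-2beta, ENSMUSG00000063870.13) was at 875, 848 and 820.3 CPM in WT and 869.7, 863 and 899 CPM in KO. The ranges overlapped, and the log2 fold change was 0.05 ± 0.04 (interval -0.04 to 0.14, adjusted p = 0.550). Its alternative Chd3 (Mi-2alpha, ENSMUSG00000018474.19) was at 125, 135 and 126 CPM in WT and 113, 119 and 115 CPM in KO. Each KO library was under each WT library, with a log2 fold change of -0.16 ± 0.05 and an adjusted p of 0.105. Without WT replicate 1 it passed (-0.18, adjusted p = 0.00549), as it did in limma-voom with quality weights (-0.19, adjusted p = 0.00543).

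Among the other NuRD subunits, the alternative Mta proteins stood on opposite sides. Mta1 was at 218, 216 and 204 CPM in WT and 193, 203 and 195 CPM in KO, and Mta2 at 438, 447 and 436 CPM in WT and 476, 459 and 453 CPM in KO. Both were without overlap, Mta1 with KO below (-0.11 ± 0.05, adjusted p = 0.213) and Mta2 with KO above (0.07 ± 0.04, adjusted p = 0.365). Neither passed in edgeR, while limma-voom with quality weights called Mta1 (-0.12, adjusted p = 0.0471). Mbd3, the methyl-binding family subunit of NuRD, differed by 0.02 on the log2 scale.

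The remaining CHD ATPases were uncalled with all 6 libraries. Chd1, which binds trimethylated H3K4 and follows elongating polymerase, was at 155, 185 and 194 CPM in WT and 171, 163 and 176 CPM in KO. Its close relative Chd2 was at 186, 206 and 208 CPM in WT and 193, 193 and 206 CPM in KO. The WT libraries spanned the KO values for both genes, with WT replicate 1 lowest, and the log2 fold changes were -0.06 ± 0.08 and -0.02 ± 0.06. Chd1 passed without WT replicate 1 (-0.16, adjusted p = 0.00975), and without WT replicate 3 its value was 0.00 and above 0 (adjusted p = 0.990).

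Chd7, the gene mutated in CHARGE syndrome, was at 101, 81.0 and 66.9 CPM in WT and 71.6, 70.6 and 76.6 CPM in KO. WT alone ranged more widely than the genotypes differed, with WT replicate 1 highest and WT replicate 3 lowest of all 6. The log2 fold change was -0.19 ± 0.13 (adjusted p = 0.447), and it passed without WT replicate 3 (-0.32, adjusted p = 0.0407) while it was near 0 without WT replicate 1 (-0.02, adjusted p = 0.891). Chd8, a regulator of Wnt signalling, was at 116, 120.4 and 119.6 CPM in WT and 103, 111 and 116 CPM in KO, and Chd9 at 36.8, 40.0 and 43.7 CPM and 37.9, 38.0 and 39.5 CPM. Both overlapped between genotypes, with log2 fold changes of -0.11 ± 0.06 and -0.06 ± 0.08.

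In the INO80 and SRCAP group the fitted fold changes of the 3 ATPase genes were below 0 and those of the shared AAA+ subunits above it. With all 6 libraries none of the 5 genes was called by edgeR with the default filter or by limma-voom without weights. With quality weights limma-voom called 3 (Ino80, Ep400 and Ruvbl2), beside 19.5% of all tested genes. An unadjusted p under 0.05 was reached by 3 of the 5 in edgeR (Ino80, Ep400 and Ruvbl2; 21.1% of all genes), and the libraries did not overlap for 4 (26.8% of all genes). Ino80 (ENSMUSG00000034154.16), the motor of the complex of that name, was at 109.6, 131 and 125 CPM in WT and 103, 102 and 108 CPM in KO. WT replicate 1 was nearest to the KO libraries. The log2 fold change was -0.22 ± 0.07 (interval -0.37 to -0.08, adjusted p = 0.0761 in edgeR). DESeq2 called it (adjusted p = 0.0461), and edgeR called it without the low-count filter (0.00585) and without WT replicate 1 (-0.30, adjusted p = 1.56e-05).

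Ep400 (ENSMUSG00000029505.18), the H2A.Z-depositing motor of the TIP60 complex, was at 219, 229.8 and 218 CPM in WT and 201, 199 and 212 CPM in KO. The groups did not overlap and the log2 fold change was -0.12 ± 0.05 (adjusted p = 0.171 with all libraries and 0.0230 without WT replicate 1). Srcap (ENSMUSG00000053877.13), the other H2A.Z-depositing motor, was at 5.78, 6.20 and 4.46 CPM in WT and 5.33, 4.14 and 5.11 CPM in KO. It overlaps 1700008J07Rik and Snora30 in RefSeq, and whether reads were lost to them was not tested. It rested on 158 to 238 counts a library, its groups overlapped, and its interval from -0.55 to 0.20 was among the widest of the members.

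The hexamer-forming AAA+ proteins Ruvbl1 and Ruvbl2 are part of INO80, SRCAP and TIP60 complexes alike. Ruvbl1 was at 146, 150.2 and 151 CPM in WT and 158, 158 and 159 CPM in KO. Ruvbl2 was at 206, 202 and 207 CPM in WT and 226, 226 and 217 CPM in KO. Both had every KO library above every WT library by a small margin. The log2 fold changes were 0.08 ± 0.05 (adjusted p = 0.315) and 0.12 ± 0.04 (adjusted p = 0.139), and Ruvbl2 passed without WT replicate 1 (0.13, adjusted p = 0.0239). Ruvbl2 overlaps Gys1, whose reads cannot be told apart where they share sequence.

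The other Snf2-family ATPases act at replicating or silent chromatin. With all 6 libraries 0 of 3 were called by edgeR with the default filter, DESeq2 or limma-voom without weights. An unadjusted p under 0.05 was reached by 0 of 3 in that edgeR fit. Hells (LSH, ENSMUSG00000025001.12) supports DNA methylation and is expressed in dividing cells. It was at 45.5, 58.2 and 69.9 CPM in WT and 69.0, 73.6 and 68.9 CPM in KO. The KO libraries were close together at the level of WT replicate 3, and WT replicate 1 was lowest. The log2 fold change was 0.28 ± 0.13 (interval -0.00 to 0.57, adjusted p = 0.238), the largest fitted value above 0 among the members. Hells passed without WT replicate 3 (0.44, adjusted p = 0.0128), without the low-count filter (0.00764) and in limma-voom with quality weights (0.0208). Without WT replicate 1 it was 0.14 (adjusted p = 0.133).

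Hells was set beside the S phase list, whose genes are also used by dividing cells. Of those 28 genes edgeR with the default filter called 20 higher and 0 lower, with a median log2 fold change of 0.37. For 1 gene the fitted value was below 0 (-0.20, unadjusted p under 0.05), with every KO library under every WT library. The list had 1 gene called lower without the low-count filter, with quality weights and without WT replicate 1. The largest rises were those of the cyclin gene Ccne1 (0.55 ± 0.09, adjusted p = 0.00439), the transcription factor gene E2f1 (0.54 ± 0.11, adjusted p = 0.0140) and the thymidylate synthase gene Tyms (0.52 ± 0.07, adjusted p = 0.00154). The S phase count fell to 12 without KO replicate 1 or KO replicate 3 and to 13 without KO replicate 2, and the E2f1 call was lost without KO replicate 1 (0.0968) or KO replicate 3 (0.0894). Of 20 G2 and mitosis genes, 0 were called by edgeR with the default filter and all 6 libraries, and 6 had an unadjusted p under 0.05. Without the low-count filter edgeR called 1 (6.01% of all genes), and without WT replicate 1 it called 3 (19.7%). DESeq2 called 1 (9.58% of all genes) and limma-voom with quality weights 5 (19.5%). Whether Hells follows the S phase genes was not tested.

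Smarcad1 (ENSMUSG00000029920.10), which helps restore silent chromatin behind the replication fork, was at 38.7, 48.4 and 48.9 CPM in WT and 43.4, 40.9 and 44.2 CPM in KO. The WT range enclosed the KO range because WT replicate 1 was low, and the log2 fold change was -0.08 ± 0.09 (adjusted p = 0.663 with all libraries and 0.0360, at -0.18, without WT replicate 1, and -0.02 without WT replicate 3). Smarcal1 (ENSMUSG00000039354.17), which rewinds DNA at stalled forks, was at 34.9, 33.8 and 32.6 CPM in WT and 32.1, 33.8 and 33.3 CPM in KO. It was the steadiest of the 3, with a log2 fold change of -0.03 ± 0.07.

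The share of each paralogue in the summed counts of its pair or trio was read in every library. Not every set holds alternatives for 1 place in a complex. Ruvbl1 and Ruvbl2 are part of the same complexes, and Baz1a and Baz1b belong to different ones. Exon lengths were not used, so a share says nothing of which paralogue is more abundant, only whether it differs between genotypes. Gatad2a made up 55.8%, 53.5% and 51.7% of the counts of Gatad2a plus Gatad2b in the WT libraries, and 58.2%, 58.5% and 58.1% in the KO libraries. The latter were nearly identical and above every WT value, a difference of 4.57 percentage points. Mta1 made up 32.6% ± 0.65 of Mta1 plus Mta2 in WT and 29.9% ± 0.94 in KO, and Chd3 13.2% ± 0.64 of Chd3 plus Chd4 in WT and 11.6% ± 0.40 in KO (SD, n = 3). The KO libraries were below the WT libraries in both. Smarca2 made up 11.1% ± 0.94 of Smarca2 plus Smarca4 in WT and 9.19% ± 0.81 in KO, again without overlap, although the levels of Smarca2 overlapped. The shares overlapped between genotypes for Arid1a and Arid1b, Smarcc1 and Smarcc2, Smarcd1 to Smarcd3, Ruvbl1 and Ruvbl2, and Baz1a and Baz1b. The shares have no test of their own.

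**Figure D4:**
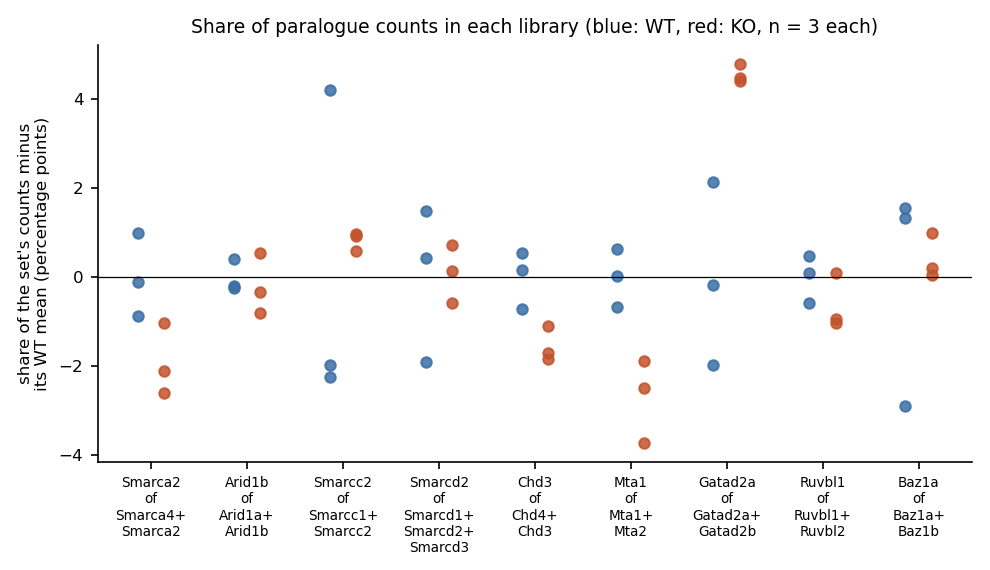
Share of a paralogue in the summed counts of its pair or trio, minus its WT mean (percentage points), 1 point a library, WT and KO side by side. The shares of Smarca2, Chd3, Mta1 and Gatad2a are without overlap between genotypes, and the largest difference is the 4.57 points of Gatad2a.

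The other genes of the same complexes and of the Snf2 family were called at about the share of all genes. Of 62 further genes 59 were tested and 4 passed (6.78%), beside 6.39% of all tested genes, and the median log2 fold change was -0.03. Actb, the actin subunit of SWI/SNF and INO80 complexes, rose from 1299, 1215 and 1185 CPM in WT to 1503, 1504 and 1468 CPM in KO (0.27 ± 0.04, adjusted p = 0.00312). Actin is also the main structural protein of the cytoskeleton. Rad54l, a recombination ATPase, rose from 17.3, 18.7 and 15.0 CPM to 25.0, 24.7 and 21.9 CPM (0.49 ± 0.10, adjusted p = 0.0167). Its call was lost without KO replicate 1 (0.115) or KO replicate 2 (0.0988).

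Both other called genes were lower in KO. Ercc6 (CSB), the transcription-coupled repair ATPase, fell from 93.1, 97.2 and 92.1 CPM in WT to 77.3, 79.9 and 80.8 CPM in KO (-0.25 ± 0.05, adjusted p = 0.0181). The INO80 subunit gene Ino80d fell from 104, 116 and 119 CPM to 91.4, 96.4 and 99.7 CPM (-0.24 ± 0.06, adjusted p = 0.0455). The groups did not overlap for either. Without WT replicate 2 or any single KO library both calls were lost (adjusted p 0.0758 to 0.121 for Ercc6 and 0.117 to 0.231 for Ino80d), and that of Ino80d also without WT replicate 3 (0.0874) or with limma-voom (0.0580). By complex, the calls were 1 of 10 further SWI/SNF genes, 0 of 6 ISWI partners, 0 of 7 CHD and NuRD genes, 1 of 25 INO80, SRCAP and TIP60 genes and 2 of 11 Snf2-family ATPases. The ISWI partners and the CHD and NuRD genes had 3 and 2 genes at an unadjusted p under 0.05. DESeq2 called 1 and 0 in these lists (9.58% of all genes), and limma-voom with quality weights 3 and 2 (19.5%).

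The number of members called depended on which libraries entered the fit. WT replicate 1 was the lowest WT library for 23 of the 43 tested members and the highest for 14 (5613 and 5972 of the 14681 tested genes). KO replicate 3 was the highest KO library for 29 members (4806 of the 14681 genes). The median distance of WT replicate 1 over the members from the mean of the other 2 WT libraries was 0.098 on the log2 scale, compared with 0.035 and 0.084 for WT replicates 2 and 3 and 0.041 to 0.065 for the KO libraries. Without WT replicate 1, 11 of 43 members passed (25.6%, 2 higher and 9 lower), beside 19.7% of all tested genes (10.6% higher and 9.12% lower). The 9 added to Chd6 and Gatad2a were Smarcc1, Arid2, Bptf, Chd3, Chd1, Ino80, Ep400, Ruvbl2 and Smarcad1. With WT replicate 3 left out 4 passed, Chd6, Smarca2, Chd7 and Hells, beside 6.77% of all tested genes. Without KO replicate 1 or KO replicate 2 none of the members passed in edgeR, with 3 and 6 at an unadjusted p under 0.05, beside 1.94% and 2.07% of all tested genes called. Chd6 and Gatad2a alone were called with RLE scaling (6.42% of all genes), upper-quartile scaling (6.38%), the stricter filter (7.8%) and limma-voom (5.89%), and 3 with DESeq2 (9.58%). Without the low-count filter 5 passed (6.01% of all genes), and with quality weights 11 (19.5%). Leaving out WT replicate 2 or KO replicate 3 left Chd6 alone (2.42% and 2.15% of all genes). Chd6 was called in 12 of the 14 alternative fits and Gatad2a in 8, and neither changed sign in any of them.

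**Figure D5:**
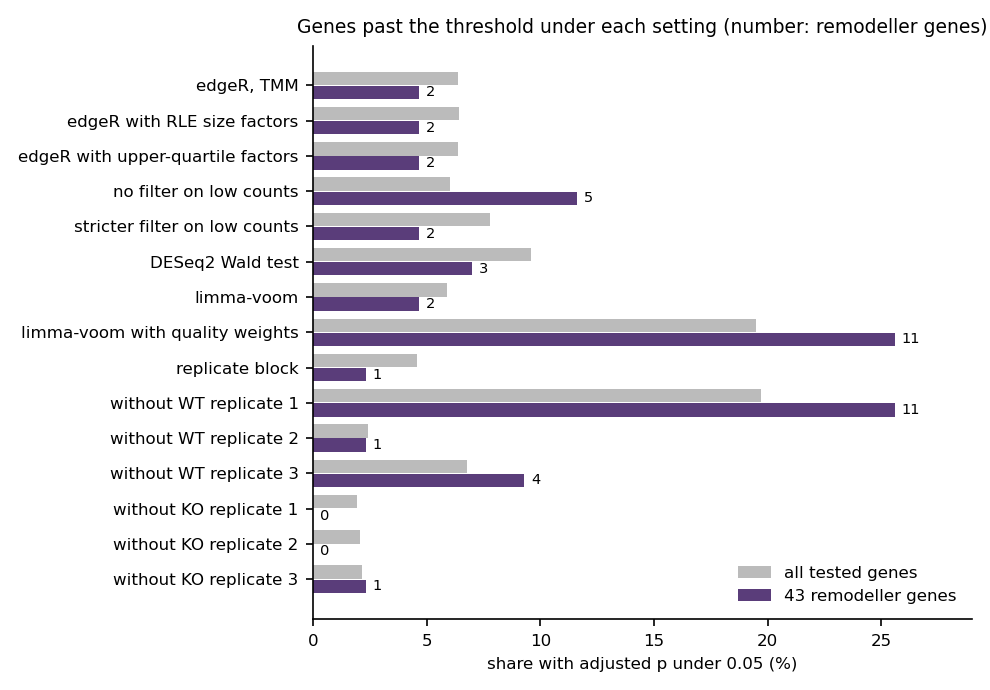
Share of genes with an adjusted p under 0.05 (%) in the main fit and each of 14 alternatives, for all tested genes and for the 43 remodeller genes, with the number of remodeller genes called at each bar. Both shares are highest with quality weights and without WT replicate 1, where 11 members are called, and 0 members are called without KO replicate 1 or 2.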

How the data were processed

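RNA was extracted with TRIzol and made into TruSeq libraries, per the labels' protocols. The authors deposited raw counts per gene from featureCounts 2.0.1 with GENCODE M33, per the file headers; genome build and aligner: not given in the sources used here. The deposited column of WT replicate 2, entered as "other" in the record of units, holds raw counts like the rest. The commands set no strand, no multi-mapping and no paired-end option; that of KO replicate 1 is printed without option names. Low counts were mostly even (65.6% to 67.7% of counts from 1 to 20), so both mates appear to be counted and counts overstate fragments. Overlapping genes cannot be told apart: 25 of the 44 members overlap another RefSeq gene. Gene IDs were matched to symbols for 51948 of 56941 (91.2%).

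KO and WT were compared in edgeR 4.0.16 (R 4.3.3) with the default low-count filter, TMM, the robust quasi-likelihood F-test and Benjamini-Hochberg adjustment over 14681 genes at 0.05. TMM factors were 0.984 to 1.016 and the biological coefficient of variation 9.28%. Library pairs differed by more than counting noise (lowest chi-square over its degrees of freedom, 4.19). The median half-width of the members' 95% intervals was 0.13 on the log2 scale. Levels of different genes were not compared, since exon lengths were not used. The script was tested on simulated data. The members and lists were chosen with earlier results of these data known. Members could all be named; full values were given for called members and ATPases, and those of other members were chosen after their values were seen. Of other remodeller genes those past the threshold were named, and of the S phase list the 3 largest changes. Alternatives used other scalings, filters, DESeq2 1.42.0, limma-voom (limma 3.58.1) with and without quality weights, a replicate block, and each library left out in turn. The 7 other samples of the 13 (ChIP-seq, ATAC-seq, CUT&Tag) were not analysed here. A result on 1 marker list is not reported here.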

Additional observations from a re-analysis of the deposited data

How the results depend on the processing

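In edgeR with the default filter and all 6 libraries, 938 genes, 2 members and 4 other remodeller genes passed. Without the filter on low counts 1568 genes and 5 members passed (Smarca2, Ino80 and Hells were added), beside 6.01% of the genes tested; with limma-voom and quality weights 2862 genes (19.5%), 11 members and 15 other remodeller genes passed. With each library left out in turn the counts ran from 295 to 2961 genes, 0 to 11 members and 1 to 16 other remodeller genes. Each count was highest without WT replicate 1 and lowest without KO replicate 1, where KO replicate 2 tied for both kinds of remodeller gene. The deviations of the 3 same-numbered pairs had r = -0.04, -0.03 and 0.00 over genes, and those of the other pairs -0.04 to 0.06. With 3 libraries a genotype these values cannot settle whether the numbers pair the libraries. With the replicate block 671 genes (4.57%) and 1 member (Chd6) passed in edgeR, and Gatad2a did not (adjusted p = 0.0801). RLE and upper-quartile scaling, the stricter filter and limma-voom without weights called 2 members each and DESeq2 3 (Chd6, Gatad2a and Ino80), beside 9.58% of the genes it tested. The cause of these differences was not tested. The median of the members stayed between -0.05 and -0.01 in every setting, Chd6 and Gatad2a kept their sign, and 12 other members changed sign in at least 1 setting: 11 that no fit called, and Chd1, called without WT replicate 1 and above 0 without WT replicate 3. The comparison of paralogue shares per kilobase could not be run, since exon lengths were not used. Srcap and Smarcd3 had the fewest counts of the tested members and the widest intervals, and Smarca1 was at 0.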
